A study of Mus musculus with 2 samples.

Results

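Translation initiation factor mRNAs were followed across polysome fractions of mouse NIH3T3 fibroblasts, untreated or treated with thapsigargin. They were taken as the coding accessions on the array whose name begins with Eif1 to Eif6, leaving out the eIF2 kinases (Eif2ak). There were 53 of 18754 coding accessions, carrying 51 gene names and 101 probes. Of these, 49 of the 53, against 10033 of all coding accessions, had an average log2 signal of both channels (A) above 4.5 on both arrays, and the results below cover these 49. The 4 left out were Eif2c3, Eif2c4, Eif4e3 and the Y-linked Eif2s3y. In Eif4e3 and Eif2s3y no probe was well above background in any channel, and in Eif2c3 none was on the control array.

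NIH3T3 is an immortalised line of mouse embryonic fibroblasts, grown here on 4 plates in medium with 10% serum. Control cells were untreated, and stressed cells received 10 µM thapsigargin, which stresses the endoplasmic reticulum by blocking its calcium uptake, for 3 h. Extracts were separated on sucrose gradients of 10 to 40%. RNA from polysomes (P) was labelled with Cy3 and RNA from the free and monosome fractions (FM) with Cy5, with 300 ng of RNA in total. By the study's methods, P and FM RNA entered labelling in the proportions found in the gradients. In control cells P exceeded FM, and after thapsigargin FM exceeded P. The labelled amounts of P and FM RNA therefore differed between the arrays, and the part of this in the changes was not tested. RNA of 3 experiments was pooled and hybridised to 1 array per condition, so that no difference between the conditions has a replicate check or a test. The log2 ratio of P to FM (log2 P/FM) was the measure of translation efficiency, and a change is thapsigargin minus control. Polysome RNA was always in Cy3, so fraction and dye cannot be told apart in a single level. All 8 fibroblast markers, among them Col1a2, Vim and Thy1, were well above background in every channel, and none of the 4 epithelial or 2 endothelial markers was. Of 3 leukocyte markers, Cd3e was above background while the defining Ptprc was not.

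Initiation factors bring the ribosome to the start codon of an mRNA. eIF2, a trimer, carries the initiator tRNA to the small subunit as a complex with GTP, and eIF2B, its exchange factor, reloads it with GTP. Kinases of eIF2, among them the one that senses stress in the endoplasmic reticulum, phosphorylate its alpha subunit and so block eIF2B. eIF3 is the large complex that holds the small subunit and the mRNA together. eIF4E binds the cap, eIF4G is the scaffold and eIF4A the helicase of the cap-binding complex, and the 4E-BPs keep eIF4E from eIF4G. Many mRNAs for the translation machinery carry a run of pyrimidines at their start (TOP mRNAs) and are held out of polysomes when growth signals fall.

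The median of the initiation factor mRNAs sat slightly above that of all coding mRNAs kept by the filter in control cells. Under stress it sat below. Their median log2 P/FM was 0.56 in control cells, against 0.34 over all coding mRNAs, and -0.45 after thapsigargin, against -0.29. The median change was -1.27, against -0.71. In control cells 34 of 49 (69.4%) lay at or above 0, against 63.5% of all coding mRNAs, and 21 (42.9%) at 0.8 or above, against 31.4%. After thapsigargin 16 (32.7%, against 37.4%) and 2 (4.08%, against 10.98%) did. The ratio was lower in 42 members (85.7%, against 70.7%) and higher in 7. These signs hold without scaling between the arrays. Setting the 10 spike-in control probes to be equal on both arrays adds 2.44 to every change, and the median of the members then turns to 1.17 and that of all coding mRNAs to 1.73.

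By the thresholds of the study, 33 of 49 members (67.3%) were sensitive (a change of -0.8 or lower), against 47.0% of all coding mRNAs. This excess depended on the processing. It reversed with loess (6 of 49, against 27.2%) and the processed signals (11 of 49, against 32.6%), and was kept with normexp and centring. Of the 33 sensitive members, 18 rest on 1 probe. No member was resistant (0.8 or more on both arrays), against 3.00%. Inducible mRNAs, with a control ratio no higher than 0 and a change of at least 1, numbered 3 (6.12%, against 8.86%), and were Eif3a, Eif4a2 and Eif4ebp3. The average signal A was higher by 1 or more in 6 members (12.2%, against 11.7% of all coding mRNAs) and lower by 1 or more in none (against 0.698%). The median change in A was 0.44, against 0.37 over all coding mRNAs.

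**Figure D1:**
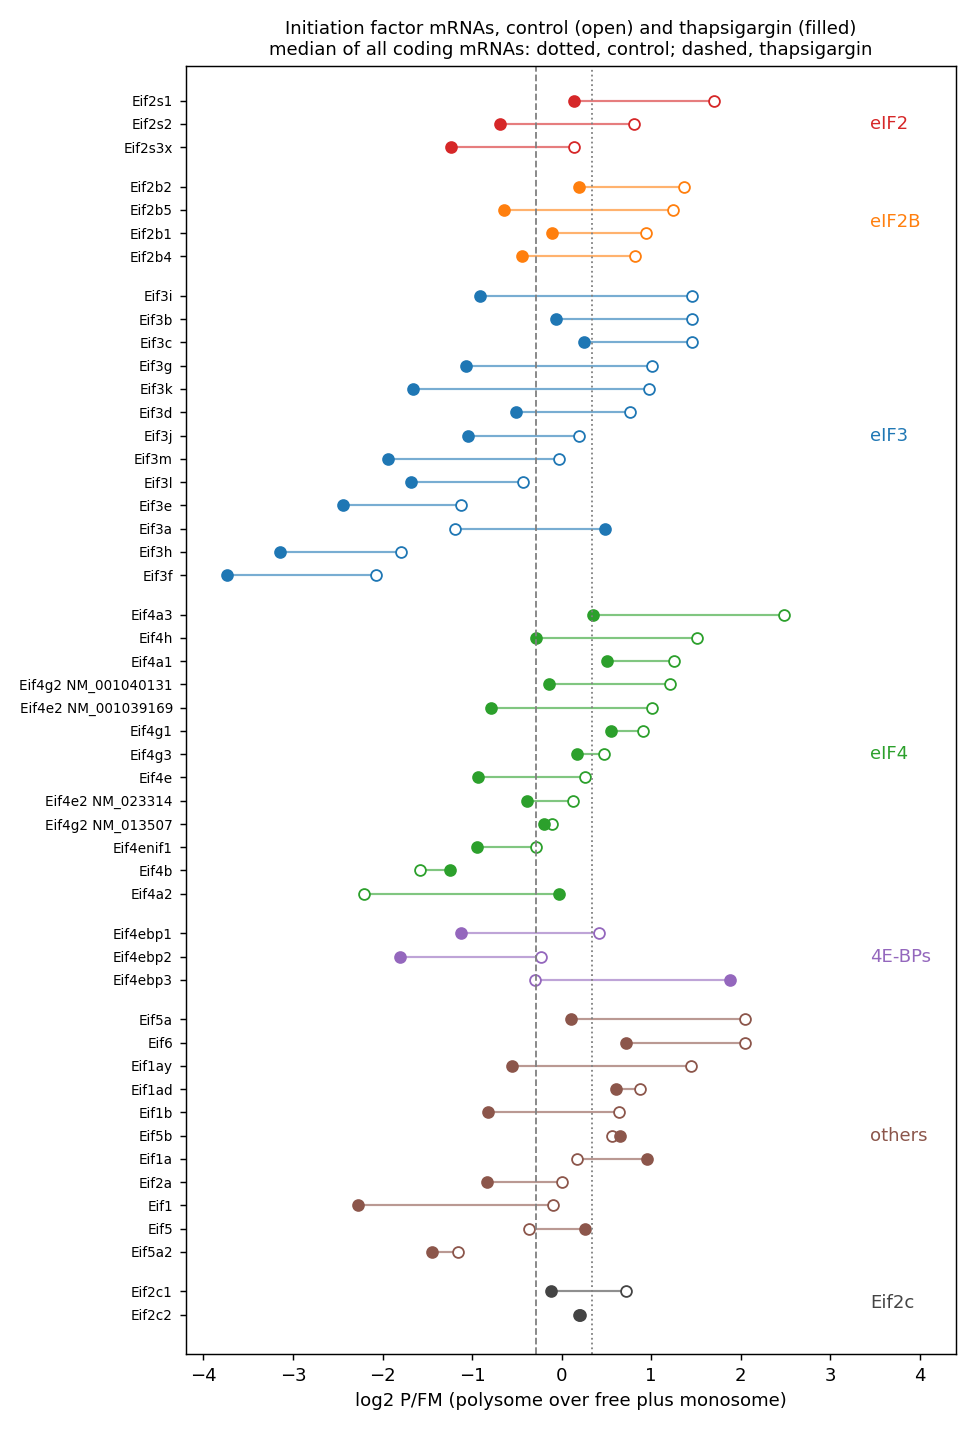
log2 P/FM of the 49 initiation factor mRNAs (rows, grouped by complex) on the control array (open circles) and the thapsigargin array (filled circles), 1 array each. Vertical lines mark the medians of all coding mRNAs, 0.34 in control cells (dotted) and -0.29 after thapsigargin (dashed). Most filled circles lie to the left of the open ones, and Eif3a, Eif4a2 and Eif4ebp3 run the other way; scaling to the spike-in probes would move every filled circle right by 2.44.

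Signal strength moved with this difference. Over all coding mRNAs the median change went from -0.24 in mRNAs with a mean A of 4.5 to 7 to -0.67 at 7 to 9, -1.26 at 9 to 11, -1.71 at 11 to 13 and -1.99 above 13. The members gave strong signals, with a mean A above 9 in 35 of the 49 (71.4%), against 29.2% of all coding mRNAs. Their medians were -0.51 under 7 (3 members), -0.36 at 7 to 9 (11 members), -1.24 at 9 to 11 (17 members), -1.59 at 11 to 13 (14 members) and -1.30 above 13 (4 members). In each range above 7 the median of the members was thus level with or above that of all coding mRNAs. The sensitive share was 92.9% against 79.7% at 11 to 13 and 4 of 4 against 85.1% above 13, and 64.7% against 65.2% at 9 to 11. Control ratios also differed with signal, with medians of -0.03, 0.45, 0.82, 1.07 and 0.32 over all coding mRNAs from dim to bright. Those of the members were 0.12, 0.56, 0.20, 1.35 and 0.29. The members thus lay below at 9 to 11, about level above 13, and above in the other ranges. The median change relative to all coding mRNAs was -0.56 as computed, -0.19 among mRNAs with A above 7, and -0.05 after loess within each array.

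**Figure D2:**
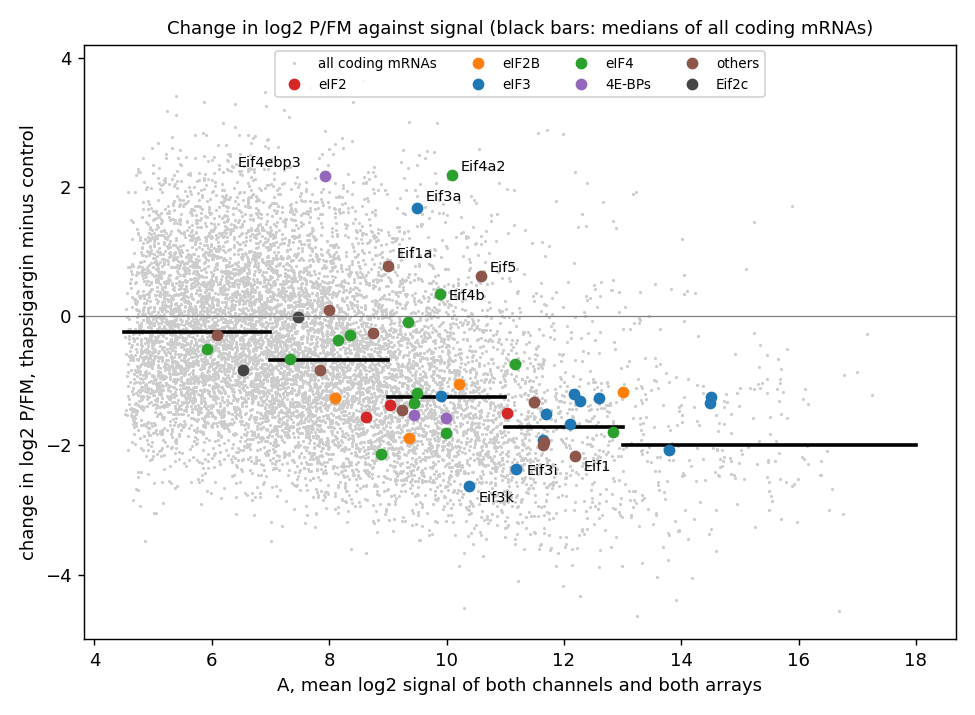
Change in log2 P/FM (vertical axis, thapsigargin minus control) against mean A (horizontal axis, log2 signal) for 10033 coding mRNAs (grey) and the 49 initiation factor mRNAs (coloured by complex). Black bars give the median of all coding mRNAs in each range of A, from -0.24 at the dim end to -1.99 at the bright end; most members lie around these bars, with Eif4a2, Eif3a and Eif4ebp3 far above them.

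Both channels shifted between the arrays, also in the spike-in probes, whose median change was -1.51 in P and 0.97 in FM. Without scaling, the FM signal of the members was higher after thapsigargin in 45 of 49 (91.8%, against 86.6% of all coding mRNAs), by a median of 0.86 on the log2 scale, against 0.72 over all coding mRNAs. The P signal was higher in 17 of 49 (34.7%, against 50.7%), with a median change of -0.18, against 0.02. The median FM change of the members is thus slightly under that of the spike-in probes, and their median P change is above it. In the P channel the widest changes were 2.88 in Eif4ebp3, 2.47 in Eif3a, 2.16 in Eif4a2, -1.79 in Eif3f and -1.94 in Eif3k. In the FM channel they were 1.85 in Eif1 and 1.77 in Eif3c and in Eif3d.

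**Figure D3:**
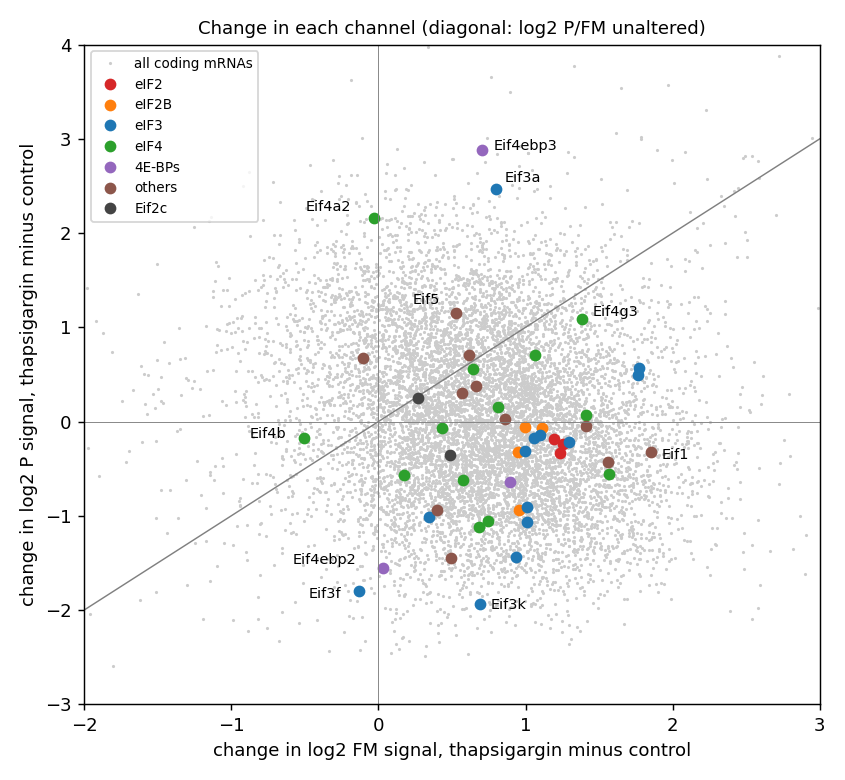
Change in the log2 P signal (vertical axis) against the change in the log2 FM signal (horizontal axis), thapsigargin minus control, for all coding mRNAs (grey; a few lie outside the axes) and the initiation factor mRNAs (coloured). Points on the diagonal kept their log2 P/FM; most members lie below it and to the right of 0, while Eif4ebp3, Eif3a and Eif4a2 stand out at P changes between 2.16 and 2.88.

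The 3 measured subunits of eIF2 all lost polysome signal relative to FM, with a median change of -1.50 (0.94 with spike-in scaling). Eif2s1, the alpha subunit that the stress kinases phosphorylate, had a P signal of 609 in control cells and 483 after thapsigargin (background-subtracted intensity units), and an FM signal of 187 and 440. Its log2 P/FM went from 1.70, at a percentile of 93.0 among all coding mRNAs, to 0.14. Eif2s2, the beta subunit, went from 0.81 to -0.69, with P at 2336 and 1974 and FM at 1333 and 3186. Eif2s3x, the X-linked gamma subunit that binds GTP and the tRNA, went from 0.14 to -1.24. The changes, -1.57, -1.50 and -1.38, lay closer together than the probes of Eif2s1 did (-1.90 and -1.24). A was higher for all 3, by 0.45 to 0.51, against a median of 0.37 over all coding mRNAs.

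All 4 measured subunits of eIF2B were well loaded in control cells, with log2 P/FM between 0.83 and 1.37 and a median of 1.1, the highest of these complexes. Their median change was -1.22 (1.22 with spike-in scaling), and all were sensitive, against 47.0% of all coding mRNAs. Eif2b5, the catalytic subunit, changed most, from 1.24 to -0.65, with a P signal of 1007 and 525 and an FM signal of 425 and 823. Eif2b2, a subunit of the regulatory part, was the brightest and went from 1.37 to 0.19. Eif2b1, also regulatory, changed least, from 0.95 to -0.10, and Eif2b4 went from 0.83 to -0.45. Eif2b1, Eif2b2 and Eif2b5 each rest on 1 probe.

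The subunits of eIF3, which form 1 complex, differed widely in ratio. In control cells their log2 P/FM ran from -2.08 (Eif3f) to 1.46 (Eif3i), with a median of 0.20, and 6 of 13 lay below 0. Eif3f and Eif3h, the pair with MPN domains, stood lowest, at -2.08 and -1.79, at percentiles of 1.96 and 3.02 among all coding mRNAs. Eif3e, Eif3l and Eif3m, of the PCI type, lay at -1.13, -0.43 and -0.02, while Eif3c and Eif3k, also of the PCI type, lay at 1.45 and 0.97. Eif3b, Eif3d, Eif3g, Eif3i and the loosely bound Eif3j, which have neither domain, lay between 0.20 and 1.46. The grouping by domain was made after the values were seen. Eif3d, Eif3f, Eif3g, Eif3h, Eif3i, Eif3k, Eif3l and Eif3m each rest on 1 probe, as does Eif3a.

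These low ratios came with strong signals. Eif3h had a P signal of 13873 in control cells and 6883 after thapsigargin, and an FM signal of 48004 and 60796, the strongest of any member in that channel. Eif3f had a P signal of 3011 and 869, and an FM signal of 12692 and 11597. In both, most of the signal was in the FM channel on both arrays. Eif3e had P at 2973 and 2387 and FM at 6489 and 12921, and both of its probes were below 0 on both arrays.

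After thapsigargin 12 of the 13 eIF3 mRNAs (92.3%) were sensitive, against 47.0% of all coding mRNAs, and 1 (7.69%, against 8.86%) was inducible. These mRNAs were bright, with a median A of 11.6 in control cells. Over all coding mRNAs with a mean A of 11 to 13, 79.7% were sensitive. The median change of the eIF3 mRNAs was -1.35. Spike-in scaling turns this median to 1.09, and loess brings it to -0.08. Eif3k showed the largest fall of all members without scaling, from 0.97 to -1.65 (-2.63), with P at 2324 and 607, and was the only one of the 49 whose change stayed below 0 with spike-in scaling (-0.18). Eif3i went from 1.46 to -0.91 and Eif3g, an RNA-binding subunit, from 1.01 to -1.06. Eif3b went from 1.45 to -0.06, with its 2 probes at -1.41 and -1.62. Eif3c went from 1.45 to 0.25 and Eif3d from 0.76 to -0.51, while their A was higher by 1.17 and 1.13. The 4 probes of Eif3c changed by -1.40 to -0.999.

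Eif3a, the largest subunit and scaffold of the complex, ran against the other 12. Its P signal was 271 in control cells and 1500 after thapsigargin, and its FM signal 616 and 1070. log2 P/FM went from -1.19 to 0.49, a change of 1.67 at a percentile of 96.3, and A was higher by 1.63. The change lay between 1.43 and 4.12 under the alternative signal choices and scalings. Of the 49 members, Eif3a and Eif3c were not among the deposited log2 ratios used here. Eif3a rests on 1 probe and 1 spot per array. Among the eIF3 probes, those of Eif3f and Eif3k are shown because they carry the lowest ratio and the largest unscaled fall, and each spans a splice junction (422 and 1191 bases of genome, chr7:116083752-116084173 on the plus strand and chr7:29765540-29766730 on the minus strand, mm9). They are printed as the deposited files give them, 60 bases in length.
Eif3f probe: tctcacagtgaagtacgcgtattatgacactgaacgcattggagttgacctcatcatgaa
Eif3k probe: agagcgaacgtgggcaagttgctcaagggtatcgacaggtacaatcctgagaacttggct

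The 13 accessions of the eIF4 group had a median change of -0.66 (1.78 with spike-in scaling), close to the -0.71 of all coding mRNAs. In this group 5 were sensitive (38.5%, against 47.0% of all), 1 inducible (7.69%, against 8.86%) and 7 in neither class. The mRNAs of Eif4a1, Eif4a2 and Eif4a3, which encode closely related DEAD-box helicases, began and moved apart. Eif4a1, the main helicase of the cap-binding complex, had a P signal of 3808 and 2573 and an FM signal of 1598 and 1807, and its log2 P/FM went from 1.25 to 0.51. Eif4a2, its close paralogue, had a P signal of 350 and 1559 and an FM signal of 1617 and 1586. Its ratio went from -2.21, at a percentile of 1.62, to -0.02, a change of 2.18 at a percentile of 98.7. Both probes of Eif4a2 were higher, by 1.81 and 2.56, and the change lay between 1.78 and 4.63 under the alternatives. Eif4a3, the helicase of the exon junction complex, had the highest ratio of all members in control cells (2.48) and went to 0.35. Under loess the change of Eif4a1 was 0.56, so the sign of its own small change (-0.74) depends on the scaling.

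The probes of Eif4a1 and Eif4a2 are printed because this contrast between paralogues rests on telling them apart. The one shown for Eif4a1 spans a splice junction (chr11:69482033-69482187, minus strand, mm9) and the one for Eif4a2 is the upstream of its 2 probes (chr16:23110158-23110217, plus strand, mm9).
Eif4a1 probe: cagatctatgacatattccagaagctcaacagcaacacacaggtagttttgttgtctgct
Eif4a2 probe: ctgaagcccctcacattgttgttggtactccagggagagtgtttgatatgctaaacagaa
They changed by -1.33 and 1.81. The other 2 probes of Eif4a1 changed by -0.48 and -0.42. Hybridisation of one paralogue to the probe of the other was not tested.

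Eif4e, the cap-binding protein, went from 0.26 to -0.93, with P at 798 and 520 and FM at 666 and 992. The helicase cofactors differed. Eif4h went from 1.52 to -0.28, with P at 13058 and 6266. Eif4b was low in control cells (-1.58, at a percentile of 4.15) and, without scaling, little altered after thapsigargin (-1.25). The change of Eif4b, 0.34 as computed, was 0.24 with normexp and 0.96 with centring. It was 1.24 with the processed signals, 1.31 with loess and 2.78 with spike-in scaling. The P signal of Eif4b was 615 and 545 and its FM signal 1844 and 1296, so it was one of the 4 members whose FM signal was lower. Without scaling, all 3 probes of Eif4b were slightly higher in ratio, by 0.17 to 0.58.

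The eIF4G scaffolds moved little in ratio and were brighter after thapsigargin. Eif4g1 went from 0.91 to 0.55 and Eif4g3 from 0.47 to 0.17, while their A was higher by 0.89 and 1.23. The small changes of Eif4g1 (-0.36) and Eif4g3 (-0.30) turned to 0.18 and 0.21 under loess and to 0.33 and 0.22 with normexp. In both mRNAs P and FM were higher together, P at 286 and 466 in Eif4g1 and at 251 and 532 in Eif4g3. Eif4g2, a scaffold that lacks the site for eIF4E, is on the array as 2 accessions that did not match. NM_013507, with 3 probes, changed by -0.09, and NM_001040131, with 1 probe, by -1.35. Eif4e2, a cap-binding homologue that represses translation, also had 2 accessions, at -1.80 (NM_001039169) and -0.51 (NM_023314). The dim NM_023314 had probes at -1.29 and 0.28. Eif4enif1, a transporter of eIF4E, went from -0.28 to -0.94.

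The 4E-BPs split. Eif4ebp1 went from 0.41 to -1.12, with P at 771 and 496 and FM at 579 and 1078. Eif4ebp2 went from -0.23 to -1.81, with P at 1232 and 420 and an FM signal of 1442 and 1471. Eif4ebp3 went from -0.29 to 1.88, the highest ratio of any member after thapsigargin, with P at 118 and 867 and FM at 144 and 236. Its change of 2.17 (percentile 98.6) lay between 2.13 and 4.61 under the alternatives, and A was higher by 1.79. Its 2 probes changed by 2.22 and 2.12, but they start 5 bases apart and so read nearly the same sequence.

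**Figure D4:**
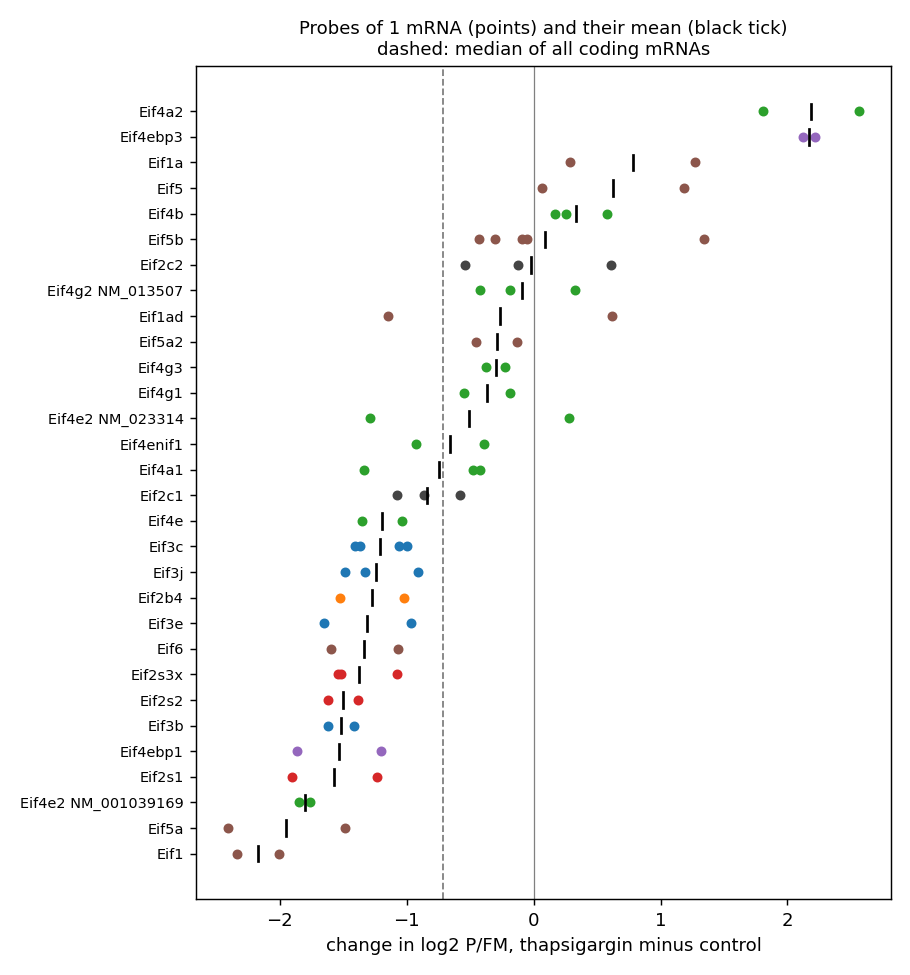
Change in log2 P/FM of each probe (points, coloured by complex) and their mean (black tick) for the 30 initiation factor accessions with 2 or more probes. In 25 of the 30 all probes have 1 sign; Eif1ad, Eif5b, Eif2c2 and the accessions NM_013507 of Eif4g2 and NM_023314 of Eif4e2 have probes on both sides of 0.

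The factors outside these complexes covered both directions, with a median change of -0.83 (1.61 with spike-in scaling). Of these factors 6 of 11 (54.5%) were sensitive, against 47.0% of all coding mRNAs. Those that act at start codon selection diverged. Eif1, which guards the choice of the start codon, changed by -2.17, from -0.10 to -2.27, with P at 3452 and 2767 and FM at 3691 and 13336. Its paralogue Eif1b went from 0.64 to -0.82. Eif5, which triggers GTP hydrolysis by eIF2, went from -0.36 to 0.26, with P at 1016 and 2257. Its 2 probes changed by 0.06 and 1.19. Eif1a went from 0.17 to 0.95, with P at 492 and 787 and probes at 0.29 and 1.27. The accession the array calls Eif1ay, whose current symbol is Eif1ax and which the files place on the X chromosome, went from 1.44 to -0.55 on 1 probe. So the mRNAs of 2 forms of eIF1A moved apart.

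Eif5b, which joins the subunits, stayed near its control ratio without scaling (0.56 and 0.66). One of its 5 probes changed by 1.34 and the others by -0.43 to -0.05. Eif5a, now known mainly as an elongation factor, went from 2.05 to 0.11, with P at 7835 and 2862, and Eif6, which keeps the large subunit from joining too early, from 2.05 to 0.71. Both began high, at percentiles of 97.2 and 97.1. Their FM signals were higher by less than the median of all coding mRNAs (1887 and 2659 in Eif5a, 1554 and 2043 in Eif6). Eif5a2, the dim paralogue, was low on both arrays (-1.15 and -1.44). Eif2a, which binds the initiator tRNA but is no subunit of eIF2, went from 0.00 to -0.83. Eif1ad went from 0.87 to 0.61.

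The names that begin with Eif2c are old names of the Argonaute proteins, which bind small RNAs and are no initiation factors. Eif2c1 went from 0.72 to -0.12, and Eif2c2 was at 0.21 and 0.19. Without them 32 of 47 members were sensitive and the median change was -1.27.

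The start sites were searched for a pyrimidine run of the TOP kind: a C followed by at least 4 bases that are each C or T, beginning within 5 bases of the annotated start, on the sense strand. In the RefSeq promoter table (GRCm38.p6) it was found in 9 of the 39 members listed there (23.1%), against 24.2% of the 8064 coding mRNAs with a promoter and 18.3% of all 32851 promoters. Of 57 cytosolic ribosomal protein mRNAs, the classic TOP class, 28 (49.1%) had it. The windows of the 5 members that passed the filter and had runs of 8 or more bases are shown, from 10 bases before the start to 20 from it, because their control ratios were far apart. Capitals mark the run from its first C inside the searched stretch.
Eif3f (chr7:108934405-108934434, plus strand): tctaggCTCTCTCTCTTTCTCggcaagatg
Eif3l (chr15:79075213-79075242, plus strand): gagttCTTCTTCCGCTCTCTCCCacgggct
Eif2s3x (chrX:94212632-94212661, minus strand): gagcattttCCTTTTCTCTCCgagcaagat
Eif2b5 (chr16:20498807-20498836, plus strand): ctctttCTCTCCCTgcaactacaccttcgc
Eif2b2 (chr12:85219471-85219500, plus strand): ccgagcggaagttgaCCTCTCTCggcccgg
In Eif3l the capitals cover neighbouring runs with a G between them. All bases printed before the capitals of Eif2b5 are C or T too, so its unbroken pyrimidine stretch begins before the searched stretch. T bases also precede the marked C in Eif3l and Eif2s3x. In the order printed, the control ratios of the 5 members were -2.08, -0.43, 0.14, 1.24 and 1.37, and their changes -1.66, -1.24, -1.38, -1.89 and -1.18. The 9 members with a run had a median control ratio of 0.87 and a median change of -1.24, and the 30 without one 0.68 and -1.26. The run hardly separated the ribosomal protein mRNAs, at -1.88 and -2.21 with it and -1.80 and -2.05 without it. This split therefore cannot show the part of TOP starts in the members, which was not tested.

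Other mRNAs of the translation machinery give a scale for these values. All 75 cytosolic ribosomal protein mRNAs were below 0 on both arrays, with a median of -1.96 in control cells and a median change of -2.05, 73 of them sensitive. The 5 measured cytosolic elongation factor mRNAs had medians of -2.44 and -1.28, and all were sensitive. Control ratios ran from -6.24 to -0.15 in the ribosomal protein mRNAs and from -3.13 to 0.56 in the elongation factor mRNAs. Many initiation factor mRNAs lay within these ranges, the lowest being Eif4a2, Eif3f and Eif3h. The median initiation factor lay 2.53 above the ribosomal protein median on the log2 scale. The ribosomal protein mRNAs were also far brighter, with a median A of 15.3 in control cells against 9.69.

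A further 28 accessions of genes that act on initiation were listed, and 27 passed the filter on A. Their median change was -0.50, with 10 of 27 sensitive (against 47.0% of all), 0 resistant (against 3.00%) and 5 of 27 inducible (against 8.86%). The inducible ones were Pabpc1, the poly(A)-binding protein, at 1.45, Ppp1r15a, the stress-induced partner of the phosphatase of eIF2, at 2.45, Impact, an inhibitor of the kinase Gcn2, at 1.01, Rptor, a subunit of the mTORC1 kinase, at 1.23, and Rps6kb1 NM_001114334, a kinase under mTORC1, at 1.39. Pabpc1, Ppp1r15a and Impact each rest on 1 probe. The probes of Rptor and of Rps6kb1 NM_001114334 differed widely in change, with SDs of 1.48 and 0.87, against a median of 0.39 over all coding mRNAs. Rps6kb1 NM_028259, which the filter left out, changed by -0.25. Pabpc1 held the lowest control ratio of all coding mRNAs, at -6.51. After thapsigargin it was at -5.06, so nearly all of its signal was still in FM. Ppp1r15b, the constitutive partner of the phosphatase of eIF2, went from 0.14 to 1.30, so that it and Ppp1r15a both ended near 1.3. Mknk2, a kinase of eIF4E, went from 1.13 to -1.14 and Mknk1 from 0.77 to -0.54. The 4 kinases of eIF2 diverged, Eif2ak1 at -1.49, Eif2ak4 at -0.02, Eif2ak2 at 0.23 and Eif2ak3, the kinase of the endoplasmic reticulum, at 0.33, the last with A higher by 1.13.

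**Figure D5:**
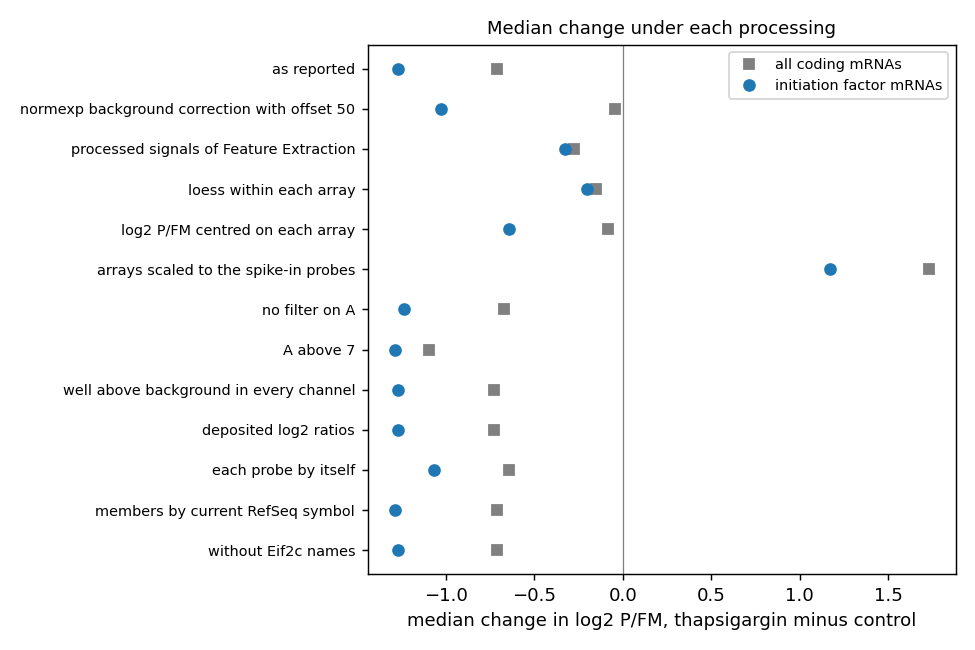
Median change in log2 P/FM (horizontal axis, thapsigargin minus control) of the initiation factor mRNAs (circles) and of all coding mRNAs (squares) under each processing (rows). The members lie left of all coding mRNAs in most rows, at -1.27 against -0.71 as reported, nearly coincide with them under loess (-0.20 and -0.15) and the processed signals, and turn positive with spike-in scaling (1.17).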

How the data were processed

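Per the file headers, intensity values of spots and of their local background came from Agilent Feature Extraction, version 10.7.1 in the submitters' processing notes, together with flags for outliers, saturation and signal well above background, and with dye-normalized processed intensity values. The authors also deposited log2 P/FM values, not normalized, with 1 value per accession. RNA of 3 experiments was pooled per array, with 1 array per condition, so nothing here carries a p-value, and precision is limited by having only 2 arrays.

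The median local background was subtracted from each spot's mean signal and values under 0.5 were set to 0.5 (limma 3.58.1, R 4.3.3), as the study's methods name, and no normalization was applied. Outlier spots, none of them on a member, were left out. Spots were averaged to probes and probes to accessions on the log2 scale (Python 3.11.15), and coding accessions with A above 4.5 on both arrays were kept. The class thresholds are those of the study. The code for the averaging and the thresholds was checked on simulated spots with planted changes. That check held no shift between arrays or dyes, so it does not bear on calls that depend on scaling. Named genes were, in each complex, those with the highest and the lowest control ratio and the largest rise and fall, every resistant or inducible member, every member whose A changed by 1 or more, and a fixed list of 21 core factors. Members and lists were chosen with earlier results of these data known. Names came from RefSeq tables of GRCm38.p6, in which all 53 accessions matched, and positions of probes from the deposited files (mm9). The alternatives tried were normexp background correction with an offset of 50, the processed signals, loess, centring each array, scaling to 10 spike-in probes, other filters, the deposited ratios, single probes, current symbols and leaving out the Eif2c names. Background and scaling alternatives kept the same 49 mRNAs.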

Additional observations from a re-analysis of the deposited data

How the results depend on the processing

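With 1 array per condition, there is no replicate to leave out. No paired analysis was possible because each condition holds 1 sample. Every value is a description of these 2 arrays, and the median SD between probes of an mRNA (0.39) was used as the yardstick for a move.

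The counts and medians depend on the scaling. With normexp, the median control log2 P/FM of the initiation factor mRNAs was 0.07, the median change relative to all coding mRNAs was -0.99, and the median change in A turned to -0.17. With the processed signals the median change was -0.33 and -0.051 relative to all, the median change in A was 0.032, and 11 mRNAs were sensitive, 3 resistant and 6 inducible. With loess the control median was 0.095, the median change was -0.2 and -0.048 relative to all, and 6 were sensitive, 1 resistant and 6 inducible. Centring each array gave a median change of -0.64, with 18 sensitive, 2 resistant and 5 inducible. Scaling to the spike-in probes reversed the median change to 1.17, with 0 sensitive, 20 resistant and 11 inducible. Over all coding mRNAs the sensitive share was 32.6% with the processed signals and 27.2% with loess, above that of the members. It was 25.1% with normexp and 27.3% with centring, below that of the members (28 and 18 of 49). With the spike-in probes it was 0.867%. Without a filter on A there was 1 resistant mRNA. Single probes gave 57 sensitive, 5 resistant and 7 inducible of 92. The other 56 recomputed summary values moved by less than the yardstick or stayed within 1.5 times.

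The medians by complex moved as well. With normexp they were -1.04 for eIF2, -0.93 for the 4E-BPs, -0.39 for the others and -0.19 for eIF4. With the processed signals they were -0.7 for eIF2, -0.56 for the 4E-BPs, -0.39 for eIF2B, -0.28 for eIF3 and -0.19 for the others. Loess gave -0.62 for eIF2, -0.55 for the 4E-BPs, -0.28 for eIF2B, -0.2 for the others, -0.17 for eIF4, -0.081 for eIF3 and -0.016 for the Eif2c names, which were at -0.017 with A above 7. Centring gave -0.91 for the 4E-BPs, -0.87 for eIF2, -0.72 for eIF3, -0.6 for eIF2B, -0.2 for the others and -0.03 for eIF4.

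The median of the Eif2c names turned to 0.26 with normexp and 0.2 with centring, and Eif2c1 turned to 0.073 with normexp. With the processed signals the changes of Eif2b2 (0.42), Eif3c (0.37), Eif3d (0.55) and Eif3e (0.22) turned positive. With loess those of Eif2b1 (0.052), Eif2b2 (0.56), Eif3c (0.41), Eif3d (0.46), Eif3e (0.27), Eif3h (0.56) and Eif6 (0.035) did so. Scaling to the spike-in probes turned every median of a complex positive, at 0.94 for eIF2, 1.22 for eIF2B, 1.09 for eIF3, 1.78 for eIF4, 0.91 for the 4E-BPs, 1.61 for the others and 2.02 for the Eif2c names. It also turned Eif2s1 (0.88), Eif2s2 (0.94), Eif2s3x (1.07), Eif2b1 (1.39), Eif2b2 (1.27), Eif2b4 (1.17), Eif2b5 (0.55), Eif3c (1.24), Eif3d (1.17), Eif3e (1.13), Eif3f (0.78), Eif3h (1.09), Eif3i (0.071), Eif4a3 (0.32), Eif4e (1.25), Eif4g2 NM_001040131 (1.1), Eif4ebp1 (0.91), Eif4ebp2 (0.86), Eif1 (0.27), Eif5a (0.5), Eif6 (1.11) and Eif2c1 (1.6). Of the smaller changes, those of Eif2c2, Eif4g1, Eif4g2 NM_013507 and Eif4g3 turned positive with normexp (0.45, 0.33, 0.088 and 0.22), the processed signals (0.27, 0.021, 0.7 and 0.15), loess (0.44, 0.18, 0.76 and 0.21), centring (0.61, 0.27, 0.54 and 0.33) and the spike-in probes (2.43, 2.08, 2.35 and 2.15). Eif4a1 turned with the processed signals (0.47), loess (0.56) and the spike-in probes (1.7), and Eif5a2 with centring (0.34) and the spike-in probes (2.15). Over all 49 members 7 changes were positive as computed, 14 with normexp or centring, 18 with the processed signals, 21 with loess and 48 with the spike-in probes. The turns with the spike-in probes follow from the scaling itself, since it adds one value to every change. The cause of the other moves was not tested.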

Other observations

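Where an accession had several probes on one strand of one chromosome, the probe nearest the 3' end of the mRNA gave the higher change more often than the probe nearest the 5' end. Of the 29 initiation factor accessions in which this could be compared, 23 (79.3%) had the higher change at the 3'-most probe, with a median difference in change of 0.51. Over all coding mRNAs it was 2253 of 3431 (65.7%), with a median difference of 0.24. The pattern was chosen after the values were seen, and it carries no test.

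The difference was wide in several members. In Eif5b the 5'-most probe changed by -0.09 and the 3'-most by 1.34, over 34311 bases of the gene. In Eif1ad the changes were -1.15 and 0.62, and in Eif5 0.06 and 1.19. Eif2c2 gave -0.54 and 0.61, and Eif4e2 NM_023314 gave -1.29 and 0.28. The opposite order was seen in 6 members, among them Eif6, at -1.07 and -1.60, and Eif2b4, at -1.02 and -1.52. For Eif1ad, Eif5b, Eif2c2, Eif4g2 NM_013507 and Eif4e2 NM_023314 the probes did not share 1 sign of change.

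In all coding mRNAs the median difference was 0.39 where the probes lay over 1000 bases apart and 0.05 where they lay closer. The 3'-most probe was brighter, by a median A of 0.83 over all coding mRNAs. Among the 1167 mRNAs whose probes differed in A by at most 1, it still gave the higher change in 68.4%, with a median difference of 0.24. Among the 8 members of that kind it did so in 6. The alternative 3' ends of these mRNAs, and the integrity of the RNA in each fraction, were not measured here, and their part in the pattern was not tested.

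The 2 probes of Eif1 are placed by the deposited files on different chromosomes, 11 and 1, and both changed alike (-2.34 and -2.01). The part that a copy of the gene at the latter position plays in its signal was not tested.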
